A study of Mus musculus with 33 samples.

Results

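The 37 genes described here belong to the oligodendrocyte lineage of the brain, from its precursor cells to the myelin sheath. They were chosen by name as 5 precursor genes, 3 lineage transcription factors and 29 genes of mature oligodendrocytes, and all 37 were found among 24053 gene rows. All 37 also passed the filter on low counts that left 14602 genes for testing. RNA was sequenced from whole nucleus accumbens, a ventral striatal region built mainly of medium spiny neurons, in 33 libraries, each taken as 1 C57BL/6J mouse from its title. Mice carried a normal microbiome and drank water (H2O), had it depleted by antibiotics and an antifungal in the drink (Abx), or were raised germ-free (GF). Conventional mice came from a supplier at 7 to 9 weeks of age, whereas age-matched germ-free mice were bred in the institution and kept in isolators. The Abx drink held the antibiotics neomycin at 2 mg/mL and vancomycin and bacitracin at 0.5 mg/mL each, with the antifungal pimaricin at 1.2 µg/mL. It was given from 2 weeks before the procedures onwards. Whole cages of 4 to 5 mice were assigned to a drink, and the cage of each mouse is not in the labels. Within each kind of mouse, animals were injected with saline or with morphine sulfate at 20 mg/kg per day for 7 days. There were 6 saline and 5 morphine mice in each of the H2O, Abx and GF kinds. The p-values below rest on a spread per gene pooled over all 33 libraries, unless another fit is named. They do not measure the spread of the compared mice alone. No batch, sequencing date or cage could be modelled.

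Oligodendrocytes wrap axons with myelin, a multilayered, lipid-rich membrane that speeds conduction and feeds the axon. They arise from precursor cells that carry the receptor Pdgfra and the proteoglycan Cspg4 (NG2), pass through a committed stage marked by Gpr17 and Bcas1, and then switch on the myelin genes under Sox10, Olig1, Olig2 and Nkx2-2. The striatum contains bundles of myelinated fibres between its neurons, so a dissection of the accumbens holds white matter as well as grey. In bulk tissue, fewer cells of a type and less RNA per cell cannot be told apart.

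Levels are given in CPM, the read count of a gene relative to all reads assigned to genes after scaling of the library, and are compared between mice and not between genes. The libraries held 4874293 to 15330747 reads in genes, with medians of 7577107 in GF saline and 6855137 in GF morphine mice against 9966970 to 13209075 in the 4 conventional groups. The least-covered member, Ninj2, had at least 8 reads in every library. The 12 medium spiny neuron markers summed to 2532 to 7836 CPM over all libraries, and none of them was without a read. The markers of cortical-type glutamatergic neurons, which the accumbens should lack, ranged from 10.4 to 1533 CPM in sum. GF saline replicates 4 and 5 stood apart for the genes described here. Where GF saline mice were compared with another group, the count of members called is given with and without them. Marker counts, the further lists of lineage genes and the GF minus H2O response are given only with them.

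The mature genes varied far more between germ-free mice than between conventional ones. Mbp, which encodes the myelin basic protein that holds the cytoplasmic faces of the sheath together, ranged from 2559 to 2872 CPM in H2O saline mice around a median of 2745. In Abx saline mice it ranged from 2359 to 2589 CPM around a median of 2468. In GF saline mice it ranged from 1170 to 4618 CPM around a median of 2640. The GF saline range thus enclosed the ranges of both conventional saline groups. Mobp, another structural protein of compact myelin, spanned 240.0 to 851.7 CPM in GF saline mice against 400.2 to 470.9 CPM in H2O saline mice.

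This spread was shared by most of the mature genes and followed single mice. The mean log2 CPM of the 29 mature genes had an SD of 0.425 in GF saline mice and 0.286 in GF morphine mice, against 0.068 to 0.105 in the 4 conventional groups. GF saline replicate 5 held the highest value of its group for 25 of the 29 genes, and replicate 4 the lowest for 24. In GF morphine mice, replicate 5 was highest for 26 of the 29 and replicate 1 lowest for 28. The median SD of single members was 0.44 log2 units in GF saline mice, beside 0.23 for all genes tested, and 0.10 beside 0.13 in H2O saline mice. Because the main test pooled the spread over all groups, its p-values between conventional groups also include this wider germ-free spread.

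Other markers moved with these mice. GF saline replicate 5 had the lowest medium spiny neuron score of any library, a mean log2 CPM of 7.16, and the highest hypothalamus score, 4.09. Its hypothalamus markers summed to 141.4 CPM, against 18.0 to 47.7 CPM in the other GF saline mice. GF saline replicate 4, at the low end for myelin genes, had a medium spiny neuron score of 8.78 and the lowest endothelium score, 4.39. Among the GF morphine mice, replicate 5 with the highest mature score also had the lowest medium spiny neuron score, 7.96, and replicate 1 with the lowest mature score had the highest, 8.64. The fewest reads in genes of any library, 4874293, were also those of GF saline replicate 5. Among all libraries, the largest share of reads tallied without a gene, 35.4%, was that of GF morphine replicate 5. That share was 23.8% in GF saline replicate 5, 23.7% in GF saline replicate 4 and 25.2% in GF morphine replicate 1. The part of tissue make-up or of library quality in the spread of the myelin genes was not tested.

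**Figure D1:**
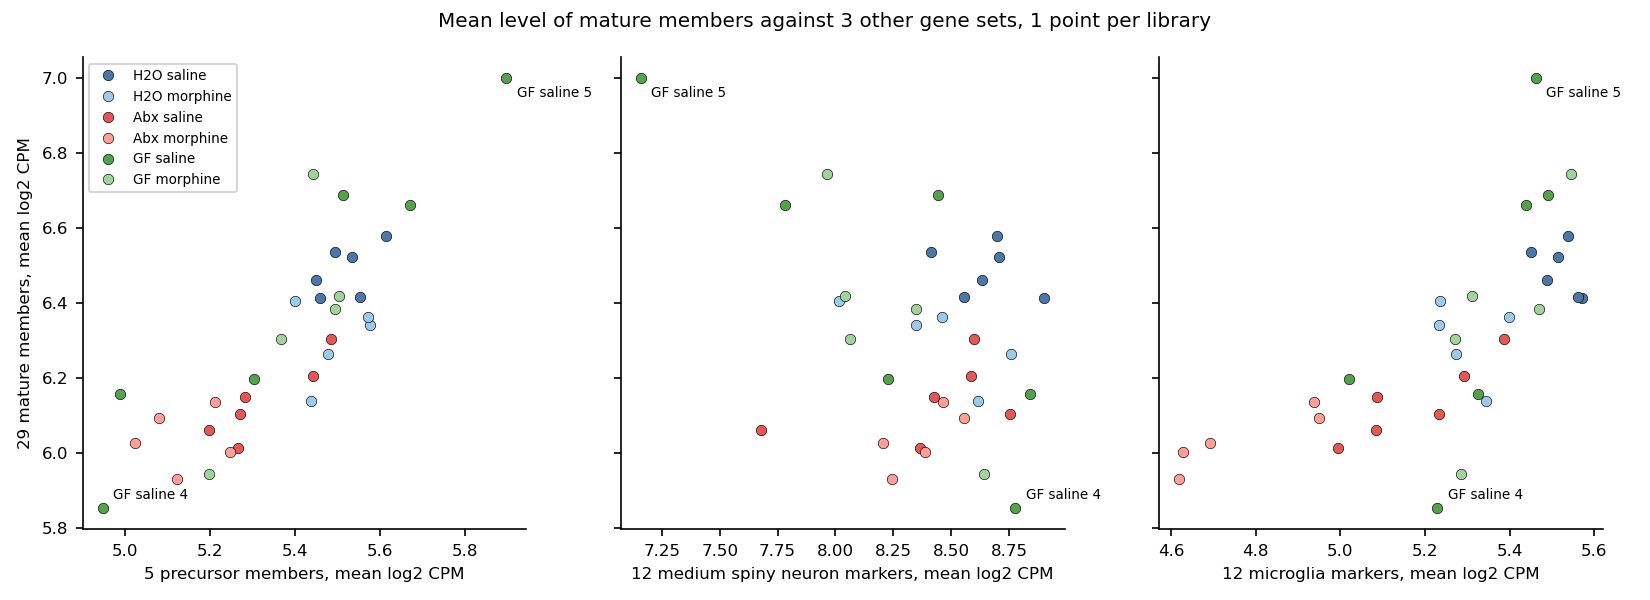
Mean log2 CPM of the 29 mature members (vertical axis) against that of the 5 precursor members, 12 medium spiny neuron markers and 12 microglia markers (horizontal axes), 1 point per library, coloured by group. GF saline replicates 4 and 5 lie at 5.85 and 7.00 on the vertical axis, below and above every other library, and the 5 Abx morphine libraries hold the lowest microglia scores.

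In saline mice, antibiotics were accompanied by lower values of the whole set, with 3 genes past the threshold. All 37 members had a log2 fold change below 0 in Abx saline against H2O saline mice, where 46.7% of all genes did. The median over the 29 mature genes was -0.30 and over all genes 0.01. In 15 of the 37, every Abx mouse lay below the range of the H2O mice, a pattern found in 0.945% of all genes. With edgeR's quasi-likelihood test and Benjamini-Hochberg adjustment over all genes, 3 members fell and 0 rose, against 0.116% of all genes called (0.0616% higher and 0.0548% lower).

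The first was Gjb1, which encodes connexin 32, a gap junction protein of myelin. It ranged from 17.6 to 20.7 CPM in H2O saline mice (median 19.6) and from 9.02 to 13.3 CPM in Abx saline mice (median 11.7). The groups did not overlap. The log2 fold change was -0.71 ± 0.14 (SE), or 0.609 times the water level, at an adjusted p of 0.0221. Klk6, a secreted serine protease made by mature oligodendrocytes, ranged from 4.92 to 10.5 CPM in H2O saline mice (median 5.85) and from 2.18 to 4.58 CPM in Abx saline mice (median 3.38). It fell by 1.04 ± 0.21 on the log2 scale, to 0.487 times the water level (adjusted p = 0.0262), and its groups did not overlap either. Tmem98, a membrane protein that binds the myelin gene regulator MYRF and holds back its cleavage, ranged from 15.95 to 19.0 CPM in H2O saline mice and from 9.65 to 12.75 CPM in Abx saline mice. It fell by 0.56 ± 0.12 on the log2 scale (adjusted p = 0.0393), again without overlap.

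These 3 calls stood close to the threshold. Leaving out single mice ended the call of Gjb1 in 7 of 12 cases, of Klk6 in 7 and of Tmem98 in 11, with adjusted p up to 0.108, 0.123 and 0.162. No member was called without H2O saline replicate 5, 8 or 9 or without Abx saline replicate 2 or 4, and 1 was called without H2O saline replicate 3 or 6 or Abx saline replicate 5 or 6. With the replicate number as a block 0 were called. Without Abx saline replicate 1 the count was 5. For fits that left out 1 mouse, here and below, the numbers of all genes called are not given. Their counts of members therefore cannot be set against all genes. A fit on these 12 mice alone called 12 members, all lower, beside 18 of all 14029 genes higher and 35 lower.

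The best known myelin genes lay lower by smaller amounts that did not pass the test. Mag, the adhesion molecule of the innermost wrap, ranged from 309.7 to 370.1 CPM in H2O saline mice and from 215.3 to 305.1 CPM in Abx saline mice. Its log2 fold change was -0.39 ± 0.15 (adjusted p = 0.27), although the 2 groups did not overlap. Mog, on the outermost face of the sheath, differed by -0.33 ± 0.15 log2 units (adjusted p = 0.353) with no overlap. Cnp, an enzyme of the non-compact cytoplasmic channels, had -0.28 ± 0.14, with 5 of 6 Abx mice below the H2O range. Mbp had -0.15 ± 0.18 and Mobp -0.19 ± 0.17. By sub-group, the median was -0.36 over the 4 genes of the inner and outer tongue of the sheath (Mag, Mog, Cnp and Ermn), -0.37 over the lipid and acetate enzymes Ugt8a, Fa2h and Aspa, and -0.19 over the 6 compact myelin genes (Mbp, Mobp, Mal, Pllp, Cldn11 and Tspan2).

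The lineage factors lay lower as well. Olig2 ranged from 30.5 to 38.2 CPM in H2O saline mice and from 24.0 to 29.96 CPM in Abx saline mice, with no overlap and a log2 fold change of -0.37 ± 0.13 (adjusted p = 0.245). Olig1 did not overlap between the groups either, at -0.28 ± 0.13 (adjusted p = 0.379). Sox10 had -0.24 ± 0.12, with 4 of 6 Abx mice below the H2O range. Of the 5 precursor genes, Pdgfra had -0.09 ± 0.07, Cspg4 -0.10 ± 0.11, Gpr17 -0.03 ± 0.08 and Bcas1 -0.32 ± 0.19. Nkx2-2 had -0.45 ± 0.19 (adjusted p = 0.328). None of the 5 separated the groups.

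Markers of other cell types were read in the same mice. Of 12 microglia markers, 2 fell and 0 rose in Abx saline against H2O saline mice, with a median log2 fold change of -0.28, and their sum was 523.0 to 645.1 CPM in Abx saline against 683.0 to 727.8 CPM in H2O saline mice. Of the 6 septum markers and the 6 ependyma markers tested 0 were called, with medians of 0.81 and 0.74. The 10 astrocyte markers had a median of -0.02, with 0 called. All 8 cortical-type markers had a log2 fold change above 0, with a median of 0.63 and 0 called. All 12 medium spiny neuron markers and 7 of 8 endothelium markers had a log2 fold change below 0, with medians of -0.23 and -0.18 and 0 called. The part of these cell types in the values of the oligodendrocyte genes was not tested.

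**Figure D2:**
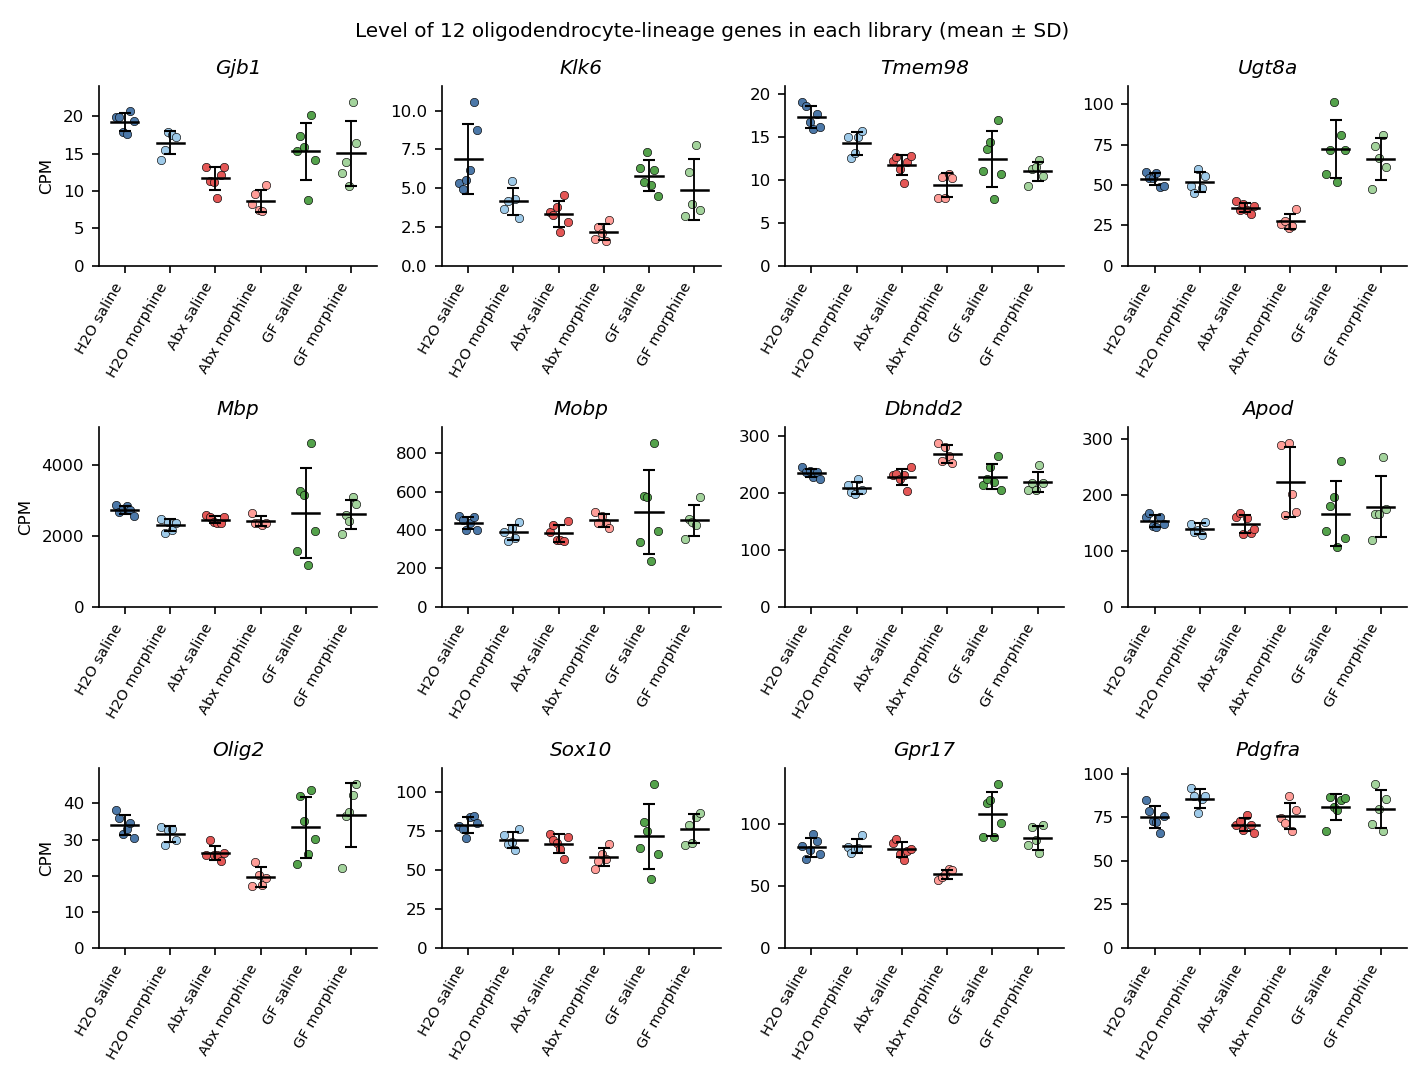
CPM of 12 members in each library by group (points), with the mean (horizontal line) and SD (error bars); vertical axes are linear and start at 0. Gjb1, Klk6, Tmem98, Ugt8a and Olig2 lie lower in the Abx groups than in the H2O groups of the same injection, Mbp and Mobp spread most in GF saline mice, and Dbndd2 and Apod are high in Abx morphine mice.

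Promoter windows of the 3 genes that fell are shown because the lineage factors SOX10 and OLIG2 act through short motifs, together with that of Mobp, which passed no test in any comparison. The windows run from 250 bases before to 50 bases after a RefSeq start site (GRCm38.p6), each read 5′ to 3′ on the strand of its gene, here the plus strand in all 5. RefSeq gives 4 such windows for Gjb1 and 2 for Klk6, and those shown are the ones that hold a motif. Capitals mark ACAAAG, the core bound by SOX proteins, read on either strand (CTTTGT on the other), or the E-box CAGCTG, which reads the same on both strands. The windows are Gjb1 at chrX:101376126-101376425 and chrX:101383482-101383781, Klk6 at chr7:43824294-43824593, Tmem98 at chr11:80810116-80810415 and Mobp at chr9:120149492-120149791.
Gjb1 upstream start: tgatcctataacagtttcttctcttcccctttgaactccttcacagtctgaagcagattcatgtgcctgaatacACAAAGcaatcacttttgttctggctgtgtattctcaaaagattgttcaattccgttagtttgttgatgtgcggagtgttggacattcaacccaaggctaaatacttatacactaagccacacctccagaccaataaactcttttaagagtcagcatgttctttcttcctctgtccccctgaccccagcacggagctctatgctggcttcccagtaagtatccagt
Gjb1 downstream start: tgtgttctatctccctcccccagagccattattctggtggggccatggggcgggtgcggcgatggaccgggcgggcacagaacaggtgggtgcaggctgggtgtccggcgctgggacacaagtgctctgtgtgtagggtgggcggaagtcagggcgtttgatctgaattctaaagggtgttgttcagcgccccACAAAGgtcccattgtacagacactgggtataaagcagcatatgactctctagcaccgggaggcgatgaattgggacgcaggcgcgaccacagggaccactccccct
Klk6: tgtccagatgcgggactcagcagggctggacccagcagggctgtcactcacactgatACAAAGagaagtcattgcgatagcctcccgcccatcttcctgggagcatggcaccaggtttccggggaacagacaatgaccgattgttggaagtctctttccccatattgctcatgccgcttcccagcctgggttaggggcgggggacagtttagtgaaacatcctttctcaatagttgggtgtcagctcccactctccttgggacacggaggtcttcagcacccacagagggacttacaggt
Tmem98: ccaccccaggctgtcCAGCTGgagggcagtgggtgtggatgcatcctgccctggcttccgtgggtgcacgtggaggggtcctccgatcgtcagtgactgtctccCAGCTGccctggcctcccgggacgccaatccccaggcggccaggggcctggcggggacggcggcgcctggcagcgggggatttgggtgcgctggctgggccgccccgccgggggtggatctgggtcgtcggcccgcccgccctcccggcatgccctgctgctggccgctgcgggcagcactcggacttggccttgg
Mobp: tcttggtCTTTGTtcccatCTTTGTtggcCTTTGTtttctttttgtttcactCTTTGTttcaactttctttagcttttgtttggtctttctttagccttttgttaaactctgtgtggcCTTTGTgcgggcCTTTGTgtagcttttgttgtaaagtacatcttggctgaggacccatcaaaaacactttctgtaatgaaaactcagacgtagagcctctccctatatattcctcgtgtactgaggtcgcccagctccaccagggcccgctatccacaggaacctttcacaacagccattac
Each Gjb1 window shown holds 1 SOX core, at base 75 and base 194 of the window, and the Klk6 window shown holds 1 at base 58. The other 2 Gjb1 windows and the other Klk6 window hold none of the motifs searched. The Tmem98 window holds no SOX core and 2 E-boxes, and the Mobp window holds 6 SOX cores. RefSeq windows were at hand for 26 of the 37 members, 36 windows in all. A SOX core was found in 12 of the 36, belonging to 9 genes, and in 18.7% of all 32851 windows. The E-box was found in 5 of the 36 and in 16.3% of all, and the MYRF motif CTGGCAC or CTGGTAC, searched on both strands and distinct from the other 2 motifs, in 6 of the 36 and in 7.1% of all. Windows of 1 gene can overlap. A match is a stretch of letters, not a measured binding site.

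Among morphine mice the members called went in both directions. Between Abx morphine and H2O morphine mice 12 members fell and 2 rose, against 10.4% of all genes called (5.86% lower and 4.54% higher). Every Abx mouse lay below the H2O range in 18 of the 37 members, beside 7.17% of all genes. In 2 members every Abx mouse lay above that range, a pattern for which no share over all genes is given. The median over the mature genes was -0.28 and over all genes 0.00. The genes that fell came from every stage of the lineage: Cspg4 and Gpr17 among the precursor genes, Olig2 among the factors, and Gjb1, Ugt8a, Klk6, Tmem98, Enpp2, Trf, Ninj2, Car2 and Lpar1 among the mature genes.

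Ugt8a, the enzyme that makes galactosylceramide, a principal myelin lipid, was read at 49.3, 45.4, 60.3, 48.2 and 55.8 CPM in the 5 H2O morphine mice. In the 5 Abx morphine mice it was read at 26.0, 27.8, 23.5, 24.9 and 35.4 CPM. All Abx mice lay below all H2O mice, and the log2 fold change was -0.91 ± 0.14, or 0.532 times the water level (adjusted p = 5.18e-05). Gjb1 was read at 14.2, 15.5, 17.9, 17.6 and 17.2 CPM in H2O morphine mice and at 8.30, 9.59, 7.52, 7.30 and 10.8 CPM in Abx morphine mice. It fell by 0.92 ± 0.16 on the log2 scale (adjusted p = 0.000205), without overlap. Car2, a carbonic anhydrase of oligodendrocytes, was read at 150.2 to 177.1 CPM in H2O morphine mice and at 94.3 to 122.6 CPM in Abx morphine mice. It fell by 0.56 ± 0.10 (adjusted p = 0.000339).

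Olig2, the basic helix-loop-helix factor needed to specify the lineage, was read at 33.4, 28.4, 32.7, 33.1 and 29.98 CPM in H2O morphine mice and at 17.0, 23.9, 20.3, 17.3 and 19.4 CPM in Abx morphine mice. It fell to 0.622 times the water level, a log2 fold change of -0.68 ± 0.14 (adjusted p = 0.00196). Every Abx mouse lay below every H2O mouse. Gpr17, the receptor of committed precursors, was read at 81.8, 76.9, 80.1, 80.6 and 91.7 CPM in H2O morphine mice and at 54.7, 57.3, 59.6, 63.7 and 62.8 CPM in Abx morphine mice. Its log2 fold change was -0.46 ± 0.09 (adjusted p = 0.00105), with all 5 Abx mice below. Pdgfra, the receptor of earlier precursors, had -0.17 ± 0.08 (adjusted p = 0.178), and 3 of 5 Abx mice lay below the H2O range.

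Ninj2, an adhesion molecule, had the lowest fold change of the set, -1.30 ± 0.28 (adjusted p = 0.0026), at 1.72 to 3.465 CPM in H2O morphine mice and 0.721 to 1.47 CPM in Abx morphine mice. It rests on few reads, 8 in the lowest of these libraries. Klk6 fell by 0.93 ± 0.24 (adjusted p = 0.0115) and Tmem98 by 0.59 ± 0.13 (adjusted p = 0.00266), each with all Abx mice below all H2O mice. Cspg4 fell by 0.39 ± 0.12 (adjusted p = 0.0257). Its call ended without H2O morphine replicate 2, 3 or 6 or Abx morphine replicate 1 or 4, and with the replicate number as a block. The call of Enpp2, which makes lysophosphatidic acid, ended in 6 of 10 such omissions, under upper-quartile scaling and with the block, and that of Trf, the iron carrier transferrin, in 4 of 10. The other 9 genes that fell, Lpar1, a receptor for lysophosphatidic acid, among them, passed in every omission of 1 mouse.

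The genes that rose were Dbndd2 and Apod. Dbndd2, a dysbindin-domain protein abundant in oligodendrocytes, was read at 215.1, 203.1, 198.9, 224.3 and 206.4 CPM in H2O morphine mice and at 287.9, 256.5, 282.3, 266.5 and 253.8 CPM in Abx morphine mice. It rose by 0.36 ± 0.06 on the log2 scale, 1.29 times (adjusted p = 0.00024), without overlap. Apod, a lipid-carrying lipocalin, was read at 147.9, 132.6, 136.9, 127.9 and 151.6 CPM in H2O morphine mice and at 288.3, 163.5, 291.4, 201.2 and 169.4 CPM in Abx morphine mice. It rose by 0.68 ± 0.19 (adjusted p = 0.0168), carried most by replicates 1 and 3, and the call ended without either of them, at an adjusted p of up to 0.0737. Among the mature genes, Apod and the 3 genes Enpp2, Trf and Car2 were listed as also used by cells outside the lineage. No such list was made for the precursor genes or lineage factors, so their values too may include other cells.

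The compact myelin genes passed in neither direction. Mbp was read at 2485, 2079, 2387, 2169 and 2376 CPM in H2O morphine mice and at 2664, 2375, 2377, 2313 and 2382 CPM in Abx morphine mice. Its log2 fold change was 0.08 ± 0.19 (adjusted p = 0.86), and the groups overlapped. Mobp had 0.21 ± 0.18 (adjusted p = 0.521), and the median of the 6 compact myelin genes was 0.09, with 5 above 0. The 4 genes of the inner and outer tongue had a median of -0.27 and none passed, while Mag (-0.35 ± 0.16, adjusted p = 0.162) and Cnp (-0.20 ± 0.15) had every Abx mouse below the H2O range. Of the 3 lipid and acetate enzymes 1 passed, Ugt8a, and the median was -0.37. Whether these sub-groups differ from each other was not tested.

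Microglia markers were again lower. Of 12 microglia markers 10 fell in Abx morphine against H2O morphine mice, with a median of -0.40, and their sum was 434.0 to 511.7 CPM against 582.9 to 650.8 CPM. Of 10 astrocyte markers 3 fell, with a median of -0.09, and of the 12 medium spiny neuron markers 0 were called, with a median of -0.07. Of 7 mural cell markers 6 had a log2 fold change below 0 and 1 above, with a median of -0.18, and 1 fell. Cortical-type markers summed to 162.0 to 1008 CPM in Abx morphine mice and to 12.9 to 1226 CPM in H2O morphine mice. Of 5 Schwann cell markers 3 were tested and 1 rose, at sums of 19.1 to 27.5 CPM against 5.38 to 22.1 CPM. The part of these cells in the results above was not tested.

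**Figure D3:**
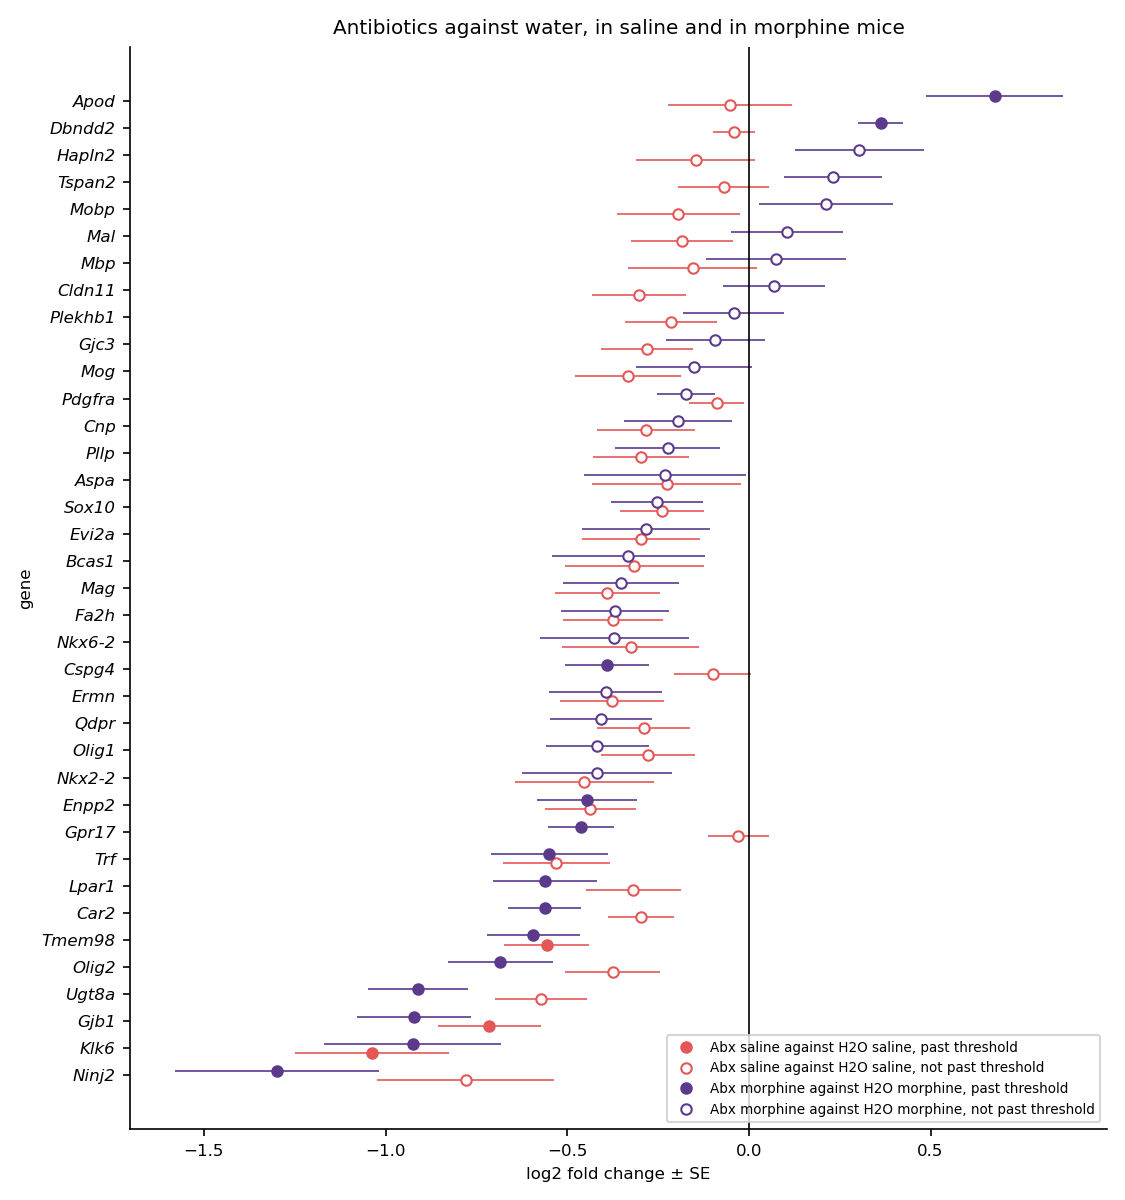
Log2 fold change ± SE (horizontal axis) of each of the 37 members in Abx against H2O mice, for saline mice (red) and morphine mice (purple), ordered by the morphine value; filled points passed the threshold of 0.05 on the adjusted p. All red points lie below 0, while Apod and Dbndd2 are filled on the right and Ninj2 lies lowest at -1.30 in purple.

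The morphine groups were then compared with the saline groups of the same kind of mouse. Between H2O morphine and H2O saline mice 0 members were called, as were 0% of all genes with edgeR. An unadjusted p under 0.05 was found for 4 of the 37 members and for 2223 of all 14602 genes. All 29 mature genes had a log2 fold change below 0, beside 48.5% of all genes, with a median of -0.17, and 8 of them had every morphine mouse below the saline range, beside 2.41%. The member with the smallest p was Klk6, at 3.68, 4.19, 5.49, 4.31 and 3.06 CPM in morphine mice against 4.92 to 10.5 CPM in saline mice. Its log2 fold change was -0.72 ± 0.21 (adjusted p = 0.114). Dbndd2 followed with -0.17 ± 0.06 (adjusted p = 0.175) and Pdgfra with 0.19 ± 0.08 (adjusted p = 0.236), the latter above the saline range in 4 of 5 mice. Limma voom with quality weights called 3 members, all lower, beside 832 of all 14602 genes higher and 482 lower. A fit on these groups alone called 10 members, all lower, beside 629 of all 14156 genes higher and 360 lower. All 12 microglia, all 12 medium spiny neuron and all 8 endothelium markers also had a log2 fold change below 0, with medians of -0.24, -0.23 and -0.18 and 0 called. Their part was not tested.

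In antibiotic-treated mice, morphine was accompanied by 2 rises and 2 falls, against 5.37% of all genes called (2.12% higher and 3.25% lower). Gpr17 ranged from 71.2 to 87.8 CPM in Abx saline mice and from 54.7 to 63.7 CPM in Abx morphine mice. It fell by 0.42 ± 0.09 (adjusted p = 0.00464), with no overlap, and its call held in every omission of 1 mouse. Car2 fell by 0.43 ± 0.10, from 136.4 to 158.1 CPM down to 94.3 to 122.6 CPM (adjusted p = 0.0089), and the call ended without Abx morphine replicate 3 at an adjusted p of 0.0505. Dbndd2 ranged from 204.8 to 246.1 CPM in Abx saline mice, below all 5 Abx morphine mice, and rose by 0.23 ± 0.06 (adjusted p = 0.0187). That call ended without Abx morphine replicate 1 or 3. Apod rose by 0.59 ± 0.18 (adjusted p = 0.0458), a call that ended in 9 of 11 omissions. Without Abx morphine replicate 3 only 1 of the 4 calls was made and without replicate 1 there were 2. Of the microglia markers 5 of 12 fell in the same comparison, with a median of -0.34.

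In germ-free mice, morphine changed 0 members by edgeR's test, against 0.00685% of all genes. An unadjusted p under 0.05 was found for 969 of all 14602 genes and for 1 of the 37 members. That member was Gpr17, at 83.0, 97.8, 87.4, 76.6 and 99.8 CPM in GF morphine mice against 89.4 to 132.4 CPM in GF saline mice. Its log2 fold change was -0.28 ± 0.09 (adjusted p = 0.58). Hapln2, a link protein at nodes of Ranvier, had -0.29 ± 0.18 (adjusted p = 0.785) and Cnp -0.21 ± 0.14 (adjusted p = 0.811). The count of members called was also 0 without GF saline replicates 4 and 5, beside 1 of all 14735 genes.

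The differences between morphine responses were tested directly. The response of Abx mice differed from that of H2O mice in 1 member, Dbndd2, by 0.40 ± 0.09 on the log2 scale (adjusted p = 0.0418), against 0.110% of all genes called. Its response was -0.17 in H2O mice and 0.23 in Abx mice. The call ended in 15 of 22 omissions of 1 mouse, with adjusted p up to 0.107, under upper-quartile scaling and with the replicate block. Gpr17 had a difference of -0.43 ± 0.12 (adjusted p = 0.2) and Apod one of 0.73 ± 0.25 (adjusted p = 0.377). Between GF and H2O responses 0 members differed, as did 0% of all genes. The unadjusted p was under 0.05 for 1 of the 37 members and for 2327 of all 14602 genes. The smallest p among the members there was that of Gpr17, at -0.29 ± 0.12 (adjusted p = 0.242). Between GF and Abx responses 0 members differed by edgeR's test, against 2.14% of all genes. Here 5 of the 37 members had an unadjusted p under 0.05, beside 2661 of all 14602 genes. Dbndd2 had -0.30 ± 0.09 (adjusted p = 0.0571), Car2 0.45 ± 0.14 (adjusted p = 0.0741) and Olig2 0.58 ± 0.20 (adjusted p = 0.113). In this last contrast DESeq2 called 2 members, beside 337 of all 13247 genes higher and 284 lower. Limma voom called 3 members, beside 329 of all 14602 genes higher and 295 lower. In 7 of 22 omissions of 1 mouse edgeR made 1 to 3 calls, the most without GF saline replicate 5.

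Germ-free mice were compared with conventional mice next. Between GF saline and H2O saline mice 3 members rose and 3 fell, where 32.9% of all genes were called (18.0% higher and 15.0% lower). The share of members called was thus below the share of all genes. Gpr17 ranged from 89.4 to 132.4 CPM in GF saline mice and from 71.8 to 92.2 CPM in H2O saline mice. It rose by 0.41 ± 0.08 (adjusted p = 0.000514), with 4 of 6 GF mice above the H2O range. Ugt8a ranged from 51.7 to 101.3 CPM against 48.9 to 57.9 CPM and rose by 0.43 ± 0.12 (adjusted p = 0.00925). Ermn, an actin-binding protein of oligodendrocytes, rose by 0.46 ± 0.14 (adjusted p = 0.0132), at 57.0 to 122.5 CPM against 57.75 to 71.5 CPM.

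Among the genes that fell, Tmem98 ranged from 7.73 to 16.95 CPM in GF saline mice, with 5 of 6 below the H2O range, and fell by 0.51 ± 0.12 (adjusted p = 0.00192). Ninj2 fell by 0.80 ± 0.26 (adjusted p = 0.0166) and Nkx2-2, a homeodomain factor of differentiating precursors, by 0.53 ± 0.20 (adjusted p = 0.0419). Both lay at low levels, of 1.15 to 2.59 and 2.15 to 5.78 CPM in GF saline mice. The call of Nkx2-2 ended in 9 of 12 omissions, that of Ermn without GF saline replicate 3 and that of Ninj2 without GF saline replicate 6. With a correction for GC content and length 2 members were called, 1 of them among these 6. Of all 14494 genes 1621 were then higher and 1045 lower. With the replicate number as a block 3 members were called, beside 2231 of all 14602 genes higher and 1919 lower. Without GF saline replicate 5 the count rose to 14, with no count over all genes to set beside it. Without replicates 4 and 5 together, which removed both ends of the group's mature scores, it was 7, including all 6. Of all 14735 genes 2310 were higher and 2043 lower in that last fit. The myelin proteins themselves did not pass: Mbp had -0.05 ± 0.18, Mog -0.07 ± 0.15 and Mobp 0.17 ± 0.17. In the same comparison 4 of 12 microglia markers and 2 of 12 medium spiny neuron markers fell, and of 8 endothelium markers 5 fell and 1 rose. All 8 cortical-type markers had a log2 fold change below 0, with a median of -1.15 and 0 called. The part of these cells was not tested. The H2O saline mice are also the reference of the antibiotic comparison above.

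Between GF morphine and H2O morphine mice 0 members passed edgeR's test, against 5.78% of all genes called. The unadjusted p was under 0.05 for 4 of the 37 members and for 3494 of all 14602 genes. Tmem98 was read at 9.33, 11.3, 11.5, 12.3 and 10.4 CPM in GF morphine mice and at 14.9, 12.5, 13.1, 14.9 and 15.65 CPM in H2O morphine mice. The groups did not overlap, and the log2 fold change was -0.37 ± 0.13 (adjusted p = 0.0905). Ermn had 0.41 ± 0.16 (adjusted p = 0.106) and Ugt8a 0.35 ± 0.14 (adjusted p = 0.111). DESeq2 also called 0, and without GF morphine replicate 1 edgeR called 3. All 8 cortical-type markers had a log2 fold change below 0 in this comparison, with a median of -3.93 and 1 called. Of 7 meningeal fibroblast markers 2 rose and 0 fell, and of 12 microglia markers 1 rose and 0 fell. The meningeal markers summed to 63.6 to 241.8 CPM in GF morphine mice, around a median of 73.2. Of 8 endothelium markers 2 rose and 1 fell, of 10 astrocyte markers 1 rose and 1 fell, and of 7 mural cell markers 1 fell. The part of these cells was not tested.

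Of the members called between germ-free and antibiotic-treated saline mice, all were higher in germ-free mice. Between GF saline and Abx saline mice 12 members rose and 0 fell, where 27.3% of all genes were called (14.4% higher and 12.9% lower). This comparison shares its Abx mice with the comparison against H2O mice above. Ugt8a ranged from 31.9 to 39.9 CPM in Abx saline mice, below all 6 GF saline mice, and was 2.00 times as high in the latter (log2 fold change 0.998 ± 0.13, adjusted p = 4.15e-06). Ermn rose by 0.84 ± 0.14 (adjusted p = 0.000132), Klk6 by 0.80 ± 0.22 (adjusted p = 0.00759) and Enpp2 by 0.57 ± 0.13 (adjusted p = 0.0015). Cldn11, the tight junction protein that seals the sheath, rose by 0.48 ± 0.13 (adjusted p = 0.00637), and Gpr17 by 0.44 ± 0.08 (adjusted p = 0.000387). The other 6 were Fa2h, which hydroxylates myelin lipids, the connexin Gjc3, Mal, Tspan2, Trf and Evi2a. Evi2a lies within an intron of Nf1, and as no strand setting is given in the sources used here its reads may include some from that gene.

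These 12 calls were all made without GF saline replicates 4 and 5 together, beside 1935 of all 14735 genes higher and 1622 lower. That omission removed both ends of the group's mature scores, so it cannot show whether the calls rest on either mouse. Without replicate 5 alone there were 8 calls, those of Fa2h, Trf, Mal and Tspan2 being lost, and without replicate 4 alone 21. No count over all genes is given for either fit. A fit on these 12 mice alone called 6 members, beside 1304 of all 13875 genes higher and 974 lower. The median over the mature genes was 0.30, and 0.15 without replicate 5. Mbp differed by 0.10 ± 0.18 log2 units, with 3 GF mice above the Abx range and 3 below it. Of the microglia markers 3 of 12 rose, and of 10 astrocyte markers 4 rose and 1 fell. All 8 cortical-type markers had a log2 fold change below 0, with a median of -1.755, and 2 were called. Of 6 hypothalamus markers tested 2 rose and 0 fell, with a median of 0.92. Of 6 septum and 7 mural cell markers 2 each fell and 0 rose, and of 8 endothelium markers 2 fell and 1 rose. The part of these cells was not tested.

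Between GF morphine and Abx morphine mice 16 members rose and 1 fell, where 28.1% of all genes were called (15.0% higher and 13.1% lower). Ugt8a was read at 47.6, 74.6, 67.1, 81.2 and 61.0 CPM in GF morphine mice, all above the Abx morphine mice given above. The log2 fold change was 1.27 ± 0.14, or 2.404 times (adjusted p = 1.16e-07). All 3 lineage factors rose, Olig2 by 0.90 ± 0.15 (adjusted p = 4.57e-05), Olig1 by 0.45 ± 0.14 (adjusted p = 0.0185) and Sox10 by 0.39 ± 0.13 (adjusted p = 0.0224). Each had 4 of 5 GF mice above the Abx range. The Sox10 call ended without Abx morphine replicate 1 or 4 or GF morphine replicate 5 or 6 and with the block, and the Olig1 call without the first 3 of these mice.

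Klk6 rose by 1.16 ± 0.25 (adjusted p = 0.00112), Ermn by 0.81 ± 0.16 (adjusted p = 0.000357) and Gjb1 by 0.78 ± 0.16 (adjusted p = 0.000719). Car2 rose by 0.62 ± 0.10 (adjusted p = 4.36e-05) and Gpr17 by 0.58 ± 0.09 (adjusted p = 3.93e-05). Fa2h, Enpp2, Trf, Ninj2, Evi2a, Lpar1 and Qdpr, which recycles tetrahydrobiopterin, made up the rest, and the calls of Qdpr, Ninj2 and Trf ended in 5, 4 and 1 of 10 omissions. Dbndd2 fell by 0.30 ± 0.06 (adjusted p = 0.000835), with all 5 GF mice below the Abx mice. None of the 6 compact myelin genes passed, and Mobp had 0.00 ± 0.18. Microglia markers rose in 11 of 12 cases, with a median of 0.52 and sums of 598.9 to 721.3 CPM in GF morphine mice, and 7 of 8 cortical-type markers fell, to sums of 10.4 to 22.2 CPM. Of 7 meningeal fibroblast markers 4 rose and 0 fell, at sums of 63.6 to 241.8 CPM in GF morphine mice around a median of 73.2. The part of these cells in the oligodendrocyte values was not tested.

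**Figure D4:**
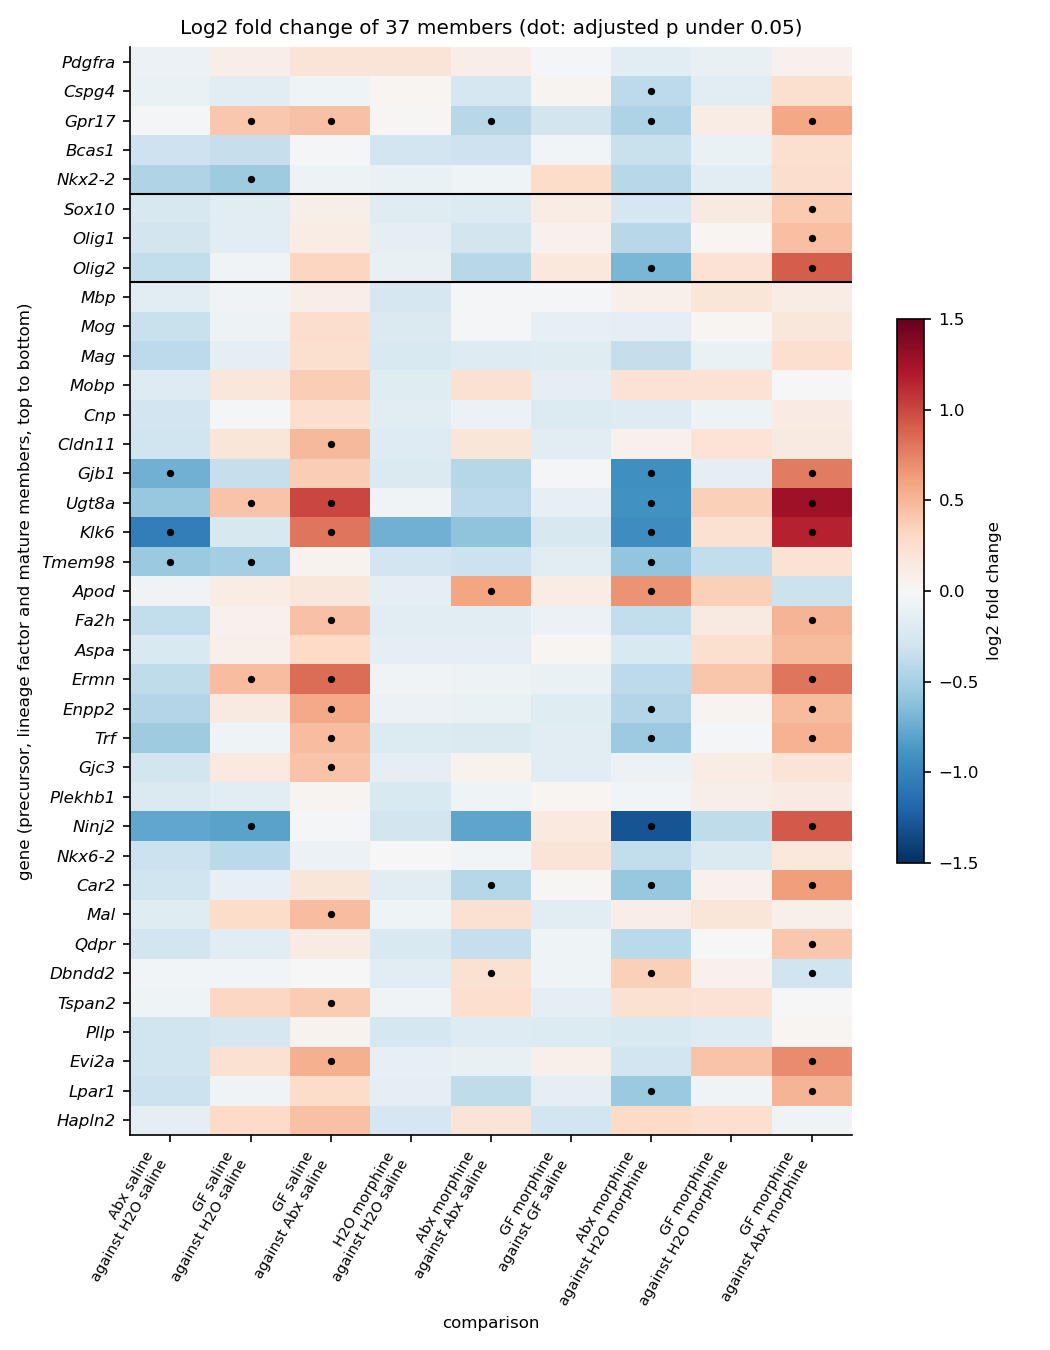
Log2 fold change (colour, red higher and blue lower) of the 37 members (rows) in the 9 comparisons between 2 groups (columns), with a dot where the adjusted p was under 0.05; black lines separate precursor, lineage factor and mature members. Dots gather in Abx morphine against H2O morphine (14), GF morphine against Abx morphine (17) and GF saline against Abx saline (12), and are missing in H2O morphine against H2O saline, GF morphine against GF saline and GF morphine against H2O morphine.

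Some members were called in no comparison. These were Pdgfra and Bcas1 among the precursor genes and Mbp, Mog, Mag, Mobp, Cnp, Aspa, Plekhb1, Nkx6-2, Pllp and Hapln2 among the mature genes. Pdgfra had its highest group median in H2O morphine mice, 86.95 CPM, and its lowest in Abx saline mice, 70.4 CPM, with ranges of 77.1 to 91.5 and 65.7 to 76.2 CPM. Bcas1 had a median of 196.5 CPM in H2O saline and of 128.6 CPM in Abx morphine mice. Aspa, which splits N-acetylaspartate to supply acetate for myelin lipids, had medians between 11.4 CPM in Abx morphine and 17.2 CPM in GF saline mice, and every group's range overlapped the others.

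Genes of the lineage outside the 37 were taken from 2 further lists, of 40 mature oligodendrocyte genes and 20 precursor genes. In Abx saline against H2O saline mice 0 of either list were called, with medians of -0.24 and -0.01. In Abx morphine against H2O morphine mice 5 of the 40 mature genes fell and 1 rose, beside 5.86% and 4.54% of all genes. Insc, Gamt and Tmem88b had log2 fold changes of -1.01 ± 0.18, -0.66 ± 0.14 and -0.53 ± 0.15, and Ptgds, a prostaglandin synthase also made by meninges, one of 1.11 ± 0.28. Of the 20 precursor genes 2 fell there, Mmp15 by 0.67 ± 0.16 and Ptprz1 by 0.36 ± 0.09. In GF morphine against Abx morphine mice 11 of the mature genes rose and 0 fell, beside 15.0% and 13.1% of all genes, Insc by 1.23 ± 0.19 and Cryab by 0.99 ± 0.19, while 5 precursor genes rose and 2 fell. In Abx morphine against Abx saline mice, where 5.37% of all genes were called, 2 mature genes fell, Gamt and Insc, and 1 precursor gene rose, the proteoglycan Vcan (0.46 ± 0.09).

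In GF saline mice 8 of the 20 precursor genes rose and 0 fell against H2O saline mice, where 32.9% of all genes were called (18.0% higher and 15.0% lower), with Tcf7l2, a Wnt effector of differentiating oligodendrocytes, at 1.11 ± 0.29 and Pcdh15 at 0.73 ± 0.17. Against Abx saline mice 6 rose and 0 fell, beside 27.3% of all genes called (14.4% higher and 12.9% lower). Of the 40 mature genes 4 rose and 7 fell against H2O saline mice, Edil3 at 0.55 ± 0.14 and Gpr62 at -0.43 ± 0.11 among them, and 8 rose and 1 fell against Abx saline mice. Neither list held a call for morphine in H2O or GF mice, for GF against H2O mice under morphine, or for the Abx or GF response minus that of H2O mice, and 1 precursor gene, Vcan, differed between the GF and Abx responses (-0.60 ± 0.14), beside 2.14% of all genes.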

How the data were processed

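Polyadenylated RNA of 33 nucleus accumbens samples was sequenced after SMARTer cDNA synthesis, per the labels' protocols. The authors deposited read counts per gene, and the submitters' processing notes name FastQC, STAR 2.4.0 and edgeR. The genome build was not given in the sources used here, nor were the annotation and the strandedness of counting. A deposited table of normalised signal served only to restore 19 of 27 gene names turned into dates. The other 8 and 5 tally rows, with 19.3 to 35.4% of the reads, were left out, leaving 24053 genes.

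Counts were fitted in edgeR 4.0.16 (R 4.3.3) with TMM scaling, filterByExpr at a count minimum of 10, and quasi-likelihood tests on 6 group means over all 33 libraries. This left 14602 genes and 27 residual degrees of freedom. Benjamini-Hochberg adjusted p under 0.05 was called, and fold changes are log2 ± SE, as |log2 fold change| over the root of F. The fit was first run on simulated counts drawn with the same spread for all genes and groups. That run cannot show how the fit behaves under the wider germ-free spread. Alternatives used limma 3.58.1 and DESeq2 1.42.0, other scalings, filters and sample sets.

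The members, lists and tests were chosen with earlier results of these data known. Values are given for members past the threshold, or for the 6 with the smallest p per direction where more than 8 passed, or for the 3 with the smallest p where none did. Mbp, Mag, Mog, Mobp, Cnp, Gjb1, Klk6, Tmem98, Pdgfra, Cspg4, Gpr17, Sox10, Olig1 and Olig2 could be given anywhere, as could the 4 leading genes of each further list. The Aspa and Bcas1 levels and the genes whose promoters are shown were picked after their values were seen.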

Additional observations from a re-analysis of the deposited data

Results flagged for a closer look

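The levels of each member and of 3 class scores were searched for a single library far from the rest of its group, in 240 sets of 5 or 6 values, of which chance alone would mark about 1 in 20, and 4 were found. Pdgfra in GF saline replicate 1 was the lowest at 67.28 CPM, against 79.03 to 86.74 CPM in the other mice. Nkx2-2 in GF morphine replicate 5 was the highest at 5.775 CPM, against 3.418 to 3.899 CPM. Mbp in Abx morphine replicate 1 was the highest at 2664 CPM, against 2313 to 2382 CPM. Evi2a in Abx morphine replicate 5 was the highest at 13.37 CPM, against 11.18 to 11.56 CPM.

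The morphine response of Dbndd2 differed between Abx and H2O mice by 0.4028 on the log2 scale in edgeR's interaction test. It was the only member called in that contrast.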

How the results depend on the processing

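The 57 calls of single members gave 1102 values under other settings, of which 962 stayed past the threshold, 140 did not and 0 changed sign. RLE scaling and DESeq2 kept all 57. The cause of the changes below was not tested. The counts of members called are given with the numbers of all genes called higher and lower in brackets. Fits on the compared groups alone, over 13875 to 14559 genes, called 12 (18 and 35) for Abx against H2O saline mice. They called 6 (1304 and 974) for GF against Abx saline. For morphine they called 10 (629 and 360) in H2O mice and 10 (602 and 540) in Abx mice. Abx against H2O morphine had 24 (1093 and 1303) and the Abx minus H2O response 3 (26 and 33). Limma voom, over 14602 genes, called 7 (102 and 85) for Abx against H2O saline and 12 (2918 and 2614) for GF against H2O saline. The median of the mature genes in the latter was -0.11. For morphine limma voom called 3 (832 and 482) in H2O mice and 13 (1148 and 1314) in Abx mice. Abx against H2O morphine had 24 (1618 and 1930). The Abx minus H2O response had 2 (54 and 118) and the GF minus Abx response 3 (329 and 295). Limma voom gave a median of 0.14 for the GF minus H2O response. The GC and length correction called 2 (1621 and 1045) for GF against H2O saline and 1 (89 and 83) for the GF minus Abx response. It gave a median of -0.020 for the GF minus H2O response. Upper-quartile scaling called 0 (6 and 7) for the Abx minus H2O response. DESeq2 called 2 (337 and 284) for the GF minus Abx response. Leaving out GF saline replicates 4 and 5 together, chosen after seeing the data, called 1 (259 and 230) there.

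The replicate numbers did not pair the samples: over 66 pairs of groups' same-numbered samples the correlation of deviations averaged -0.00070, from -0.473 to 0.462. With the number as a replicate block, 46 of the 57 calls were kept. The calls, with all genes higher and lower in brackets, were 0 (2 and 2) for Abx against H2O saline. They were 3 (2231 and 1919) for GF against H2O saline and 0 (3 and 6) for the Abx minus H2O response.

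Leaving out 1 mouse at a time gave 0 to 5 calls for Abx against H2O saline, 4 to 14 for GF against H2O saline (median -0.18 to 0.076), 8 to 21 for GF against Abx saline (median 0.15 to 0.39), 1 to 5 for morphine in Abx mice, 0 to 3 for GF against H2O morphine, 0 to 1 for the Abx minus H2O response and 0 to 3 for the GF minus Abx response (median -0.11 to 0.21). The median of the GF minus H2O response ran from -0.037 to 0.22. The numbers of all genes called in these fits are not given, so the member counts cannot be set against them. Depth limits Ninj2, which had 8 reads in 1 of the Abx morphine libraries.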
